A study of Mus musculus with 12 samples.

Results

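The 6 transglutaminase genes *Tgm1*, *Tgm5*, *Tgm3*, *Tgm6*, *Tgm2* and *F13a1* were followed through the skin of 4 groups of mice. They were found in the deposited table of 52636 genes by matching its Ensembl identifiers to these symbols, and the 6 names were chosen by their known place in skin and with their levels in these groups already known. Their levels and fold changes are therefore given as a description, and only genes outside the list are given a p-value. Where a member is said to be called, it passed the threshold of the fit over all genes, and that call, kept or lost, is no evidence about a gene chosen by its levels. The table held 9 genes of the family in all, so 3 lay outside the list. All 6 passed the filter on low counts and were among the 18822 genes tested.

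Transglutaminases are calcium-dependent enzymes that join the side chains of glutamine and lysine and so weld proteins into networks that resist proteases. In the upper epidermis they build the cornified envelope, the protein shell of the dead surface cells, from loricrin, involucrin, small proline-rich proteins and keratins. In the hair follicle they harden the inner root sheath and the medulla by linking trichohyalin to keratins. In the dermis and in blood they stabilise matrix and fibrin.

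Each of the 4 groups held 3 mice of the C57BL/6 strain aged 3 months, and skin was taken after 14 days. The groups WT and KO were the untreated controls, which received the vehicle of saline with hydroxypropyl methylcellulose. The groups WT+ZnO NPs and KO+ZnO NPs were given zinc oxide nanoparticles on the skin. The KO mice carried *Cdc42* flox/flox alleles with Cre under the promoter of keratin 5, which is active in keratinocytes, and the WT mice carried floxed alleles without Cre. The RNA came from full-thickness skin, so cells that Cre does not reach were measured together with keratinocytes, and in such bulk samples fewer cells of a type and less RNA per cell cannot be told apart.

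Total counts lay between 21076320 and 28867802 per library. Levels are given as CPM, the count of a gene scaled to the size of its library after correction by TMM factors, and as CPM per kilobase of exon where genes are compared with each other. Markers of basal keratinocytes were present in every library, with a summed level of 4374 to 12029 CPM over 5 genes. The *Cdc42* transcript lay at 606 to 628 CPM in WT and at 415 to 464 CPM in KO, but at 311 to 350 CPM in WT+ZnO NPs and at 314 to 453 CPM in KO+ZnO NPs. *Cdc42* was thus lower in WT+ZnO NPs than in KO, although the label is of wild type (log2 fold change against WT -0.92 ± 0.15, adjusted p = 0.000799, edgeR). The reason was not tested, and the count of a whole gene in bulk skin does not settle the genotype. WT+ZnO NPs below therefore stands for the libraries labelled so. Between KO and WT the log2 fold change was -0.49 ± 0.15 (adjusted p = 0.0653). Transcripts of 4 Y-linked genes were found in 5 libraries, namely all 3 of WT+ZnO NPs, KO replicate 1 and KO+ZnO NPs replicate 1, with summed levels of 192 to 242 CPM, and at most at 0.050 CPM in the other 7. *Xist*, which is transcribed from the inactive X chromosome, was at 0 to 0.475 CPM in those 5 libraries and at 460 to 1033 CPM in the other 7. By these transcripts WT+ZnO NPs against WT set male against female skin. For WT+ZnO NPs against WT, treatment and the presence of Y-linked transcripts cannot be told apart within the pair of groups. A fit with Y-linked transcripts as a covariate draws on the KO groups, and its values are given for the calls of members it changes and for lists whose count it moves by over 1.5 times in that comparison. The study's methods describe the KO mice as female, which the Y-linked transcripts of KO replicate 1 and KO+ZnO NPs replicate 1 go against.

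The keratinocyte members lie on chromosomes 14 and 2 of GRCm38. *Tgm1* is at chr14:55700009-55713926 on the minus strand and *Tgm5* at chr2:121046111-121085841 on the minus strand. *Tgm3*, at chr2:130012349-130050399, and *Tgm6*, at chr2:130112416-130154232, are on the plus strand, 62016 bases apart, with 0 protein-coding genes between them. *Tgm2* is at chr2:158116402-158146436 and *F13a1* at chr13:36867178-37050244, both on the minus strand. The promoters of the neighbours *Tgm3* and *Tgm6* and of *Tgm1* are shown because the comparison of follicular with epidermal members turns on these genes. Each run covers 250 bases before and 50 after a RefSeq start site on GRCm38.p6, read in the direction of the gene, and capitals mark the letters of a motif.

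*Tgm1* (chr14:55713443-55713742, minus strand): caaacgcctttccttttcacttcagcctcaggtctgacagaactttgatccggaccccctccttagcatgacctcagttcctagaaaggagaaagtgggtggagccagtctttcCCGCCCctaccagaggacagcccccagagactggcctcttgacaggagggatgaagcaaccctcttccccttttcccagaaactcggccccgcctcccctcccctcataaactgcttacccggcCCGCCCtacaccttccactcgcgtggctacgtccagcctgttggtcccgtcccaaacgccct

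*Tgm3* (chr2:130012090-130012389, plus strand): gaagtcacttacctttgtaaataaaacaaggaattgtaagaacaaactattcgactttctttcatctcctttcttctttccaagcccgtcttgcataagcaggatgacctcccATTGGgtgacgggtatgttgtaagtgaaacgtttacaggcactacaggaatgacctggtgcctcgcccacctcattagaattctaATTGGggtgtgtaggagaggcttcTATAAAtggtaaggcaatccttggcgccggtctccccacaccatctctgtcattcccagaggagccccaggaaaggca

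*Tgm6* (chr2:130112166-130112465, plus strand): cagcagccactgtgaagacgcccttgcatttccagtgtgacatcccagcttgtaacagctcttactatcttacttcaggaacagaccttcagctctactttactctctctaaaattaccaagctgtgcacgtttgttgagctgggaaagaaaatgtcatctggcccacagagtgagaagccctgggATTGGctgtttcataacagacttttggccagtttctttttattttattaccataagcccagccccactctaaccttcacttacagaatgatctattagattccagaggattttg

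A total of 6 motifs were searched on both strands: the TATA box TATAAA, the CCAAT box CCAAT, the GC box GGGCGG, the AP-1 site TGACTCA, the grainyhead site AACCGGTT and the TCF/LEF site CTTTGAA. They occur in 13.6%, 37.4%, 35.7%, 5.20%, 0.146% and 5.14% of the 32851 promoters of 300 bases in the same table. The promoter of *Tgm3* held a TATA box starting 28 bases before the start site and CCAAT boxes at 137 and 52 bases before it. The promoter of *Tgm6* held 1 CCAAT box, 64 bases before its first start, and a second start of this gene held 1 TCF/LEF site. The promoter of *Tgm1* held 2 GC boxes, at 136 and 12 bases before its first start, and none of the other motifs, while a second start of this gene held 1 CCAAT box. The marked letters do not overlap each other. RefSeq promoters were matched for 5 of the 6 members, *Tgm2* being the one without.

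Of the epidermal members, *Tgm1* encodes the membrane-bound enzyme of the cornified layer, whose loss causes lamellar ichthyosis in humans. Its level was 84.2, 57.0 and 43.6 CPM in the 3 WT libraries and 101, 97.9 and 54.1 CPM in KO. It was 18.9, 48.9 and 40.2 CPM in WT+ZnO NPs and 73.1, 43.6 and 13.5 CPM in KO+ZnO NPs. The libraries of the 2 groups overlapped in each of the 4 comparisons of the design. The highest mean was in KO (84.4 ± 26.3 CPM, SD, n = 3) and the lowest in WT+ZnO NPs (36.0 ± 15.4 CPM, n = 3). KO and WT+ZnO NPs, which differ in both genotype and treatment, did not overlap, and the spread between mice of KO+ZnO NPs reached 5.41-fold. The log2 fold change was 0.45 ± 0.53 (SE) for KO against WT, -0.77 ± 0.54 for WT+ZnO NPs against WT and -0.96 ± 0.54 for KO+ZnO NPs against KO. Each of these lay within 2 SE of 0. An antisense gene, *Gm49067*, shares 4.18% of the 50-base stretches of *Tgm1*, and without strand its reads could not be separated.

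*Tgm5*, which encodes a transglutaminase of the upper epidermis mutated in acral peeling skin syndrome, was the lower of the epidermal pair in every group mean. Its level was 17.8, 9.83 and 20.5 CPM in WT, 23.0, 10.9 and 14.1 CPM in WT+ZnO NPs, 20.5, 31.3 and 17.9 CPM in KO and 25.6, 20.7 and 42.3 CPM in KO+ZnO NPs. The groups overlapped in the 4 comparisons of the design, while KO+ZnO NPs lay just above WT. The log2 fold change was 0.54 ± 0.38 for KO against WT, 0.35 ± 0.38 for KO+ZnO NPs against KO and 0.88 ± 0.38 for KO+ZnO NPs against WT+ZnO NPs, and WT+ZnO NPs against WT gave a mean fold of 0.999. *Tgm5* did not follow *Tgm1* from mouse to mouse. Replicate 3 of KO+ZnO NPs had the lowest *Tgm1* of all 12 libraries and the highest *Tgm5*, and the ratio of *Tgm5* to *Tgm1* per length was 3.14 there against 0.173 to 1.22 in the other libraries.

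**Figure D1:**
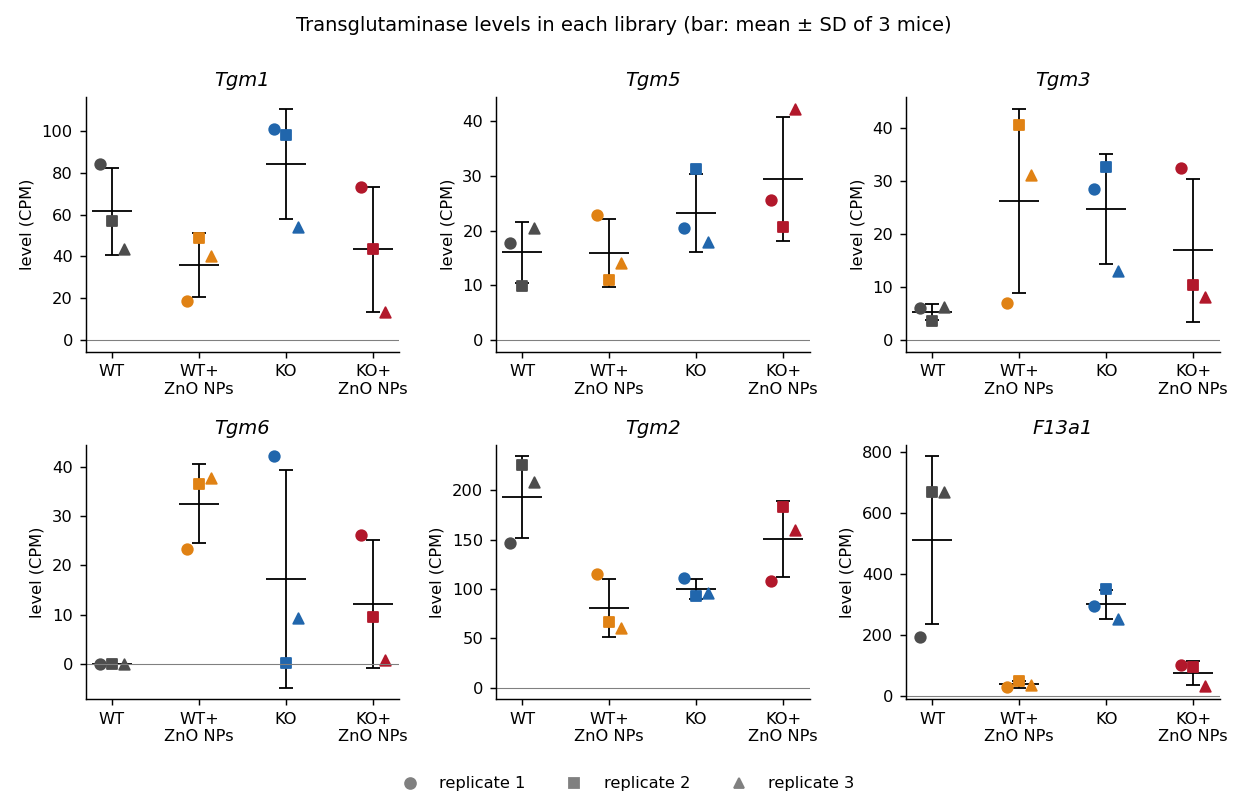
Level of each of the 6 genes (CPM, linear axis) in the 12 libraries, with 1 panel a gene, points for libraries shaped by replicate number, and bars for the mean ± SD of 3 mice. *Tgm6* lies near 0 in all 3 WT libraries and between 23.2 and 37.8 CPM in WT+ZnO NPs, *F13a1* lies below 50 CPM in WT+ZnO NPs, and *Tgm1* and *Tgm5* overlap between groups that differ in treatment or in genotype alone.

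Of the follicular members, *Tgm3* encodes an enzyme activated by proteolysis that acts in the inner root sheath, the hair medulla and the upper epidermis. It was at 6.00, 3.55 and 6.16 CPM in WT, the lowest group. It was at 28.5, 32.6 and 12.99 CPM in KO and at 6.96, 40.6 and 31.2 CPM in WT+ZnO NPs, so that neither group overlapped with WT, although WT+ZnO NPs replicate 1 was only just above it. The KO+ZnO NPs libraries were at 32.5, 10.3 and 8.06 CPM. The fitted level of *Tgm3* was 4.72 times that of WT in KO (log2 fold change 2.24 ± 0.69) and 5.01 times in WT+ZnO NPs (2.33 ± 0.69), while KO+ZnO NPs against KO gave -0.54 ± 0.65. For WT+ZnO NPs against WT the call of *Tgm3* did not survive leaving out WT replicate 1 (log2 fold change 2.43), WT replicate 2 (2.10), WT+ZnO NPs replicate 2 (1.86) or WT+ZnO NPs replicate 3 (2.18), and with the Y-linked covariate it was not called either, at 1.21. For KO against WT it was not called, at 2.24, but was called without WT+ZnO NPs replicate 1 (2.24), without KO+ZnO NPs replicate 1 (2.24) and among only the libraries without Y-linked transcripts (2.12).

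In relative terms *Tgm6* showed the widest range of the 6 genes, while in CPM *F13a1* did. *Tgm6* encodes a transglutaminase best known from the nervous system, where mutations cause a spinocerebellar ataxia. It was almost absent from WT, with 0, 1 and 0 counts in the 3 libraries. WT+ZnO NPs had 581, 799 and 956 counts (23.2, 36.5 and 37.8 CPM). In KO it had 992, 4 and 213 counts (42.2, 0.161 and 9.38 CPM) and in KO+ZnO NPs 601, 188 and 17 counts (26.2, 9.47 and 0.740 CPM). WT+ZnO NPs was thus the only group in which all 3 mice had more than 20 CPM, and KO held 1 mouse near the level of WT. Summed over libraries and relative to total counts, the ratio to the single WT count was 2645 for WT+ZnO NPs, with an exact 95% interval of 474 to 104503, 1287 for KO (231 to 50887) and 902 for KO+ZnO NPs (161 to 35665). These intervals cover counting error only, not the spread between mice. *Tgm6* passed the filter on low counts in the fit of all libraries but not in a fit of only KO and WT. The fitted log2 fold change of 9.87 for KO against WT depends on the prior count, and the call was lost without KO replicate 1 (8.02) or KO replicate 3 (10.17), without WT replicate 1 (9.47), WT replicate 2 (11.65) or WT replicate 3 (9.47), and among only the libraries without Y-linked transcripts (8.02).

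*Tgm6* varied with the keratins of the inner root sheath, the follicle layer that moulds the growing hair. *Krt25*, such a keratin, was at 0.336, 0.0351 and 0.128 CPM in WT and at 169, 809 and 1204 CPM in WT+ZnO NPs. It was at 1990, 0.121 and 697 CPM in KO and at 1729, 1711 and 47.3 CPM in KO+ZnO NPs. The libraries with the least *Krt25* were the 3 of WT and KO replicate 2, and these 4 also had the least *Tgm6*. KO+ZnO NPs replicate 3 came next in both. Over the 12 libraries Pearson's r of log2(CPM + 1) of *Tgm6* was 0.924 with *Krt25* and 0.905 with *Tchh*, which encodes trichohyalin, and 0.936 and 0.967 after the group means were taken out. The hair keratin gene *Krt31* gave 0.983 and 0.960 in the same way, so the relation was not particular to the inner root sheath. These values are a description over libraries that share 4 groups. The amount of *Tgm6* for a given amount of *Krt25* differed between groups, at 0.0184 to 0.0805 per length in WT+ZnO NPs, 0.00786 to 0.0124 in the 2 KO libraries with at least 20 counts of *Krt25*, and 0.00324 to 0.00916 in KO+ZnO NPs, so that WT+ZnO NPs did not overlap with the others. No ratio was formed in WT, where *Krt25* was under that minimum.

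For *Tgm3* the relation to these keratins was looser by description. In KO replicate 2, which had 0.121 CPM of *Krt25* and 11.6 CPM of *Tchh*, *Tgm3* was at 32.6 CPM, its second highest level. Its r with *Krt25* over the 12 libraries was 0.562, and 0.143 after the group means were taken out. The relation between the neighbours *Tgm3* and *Tgm6* was likewise loose, with r at 0.636 and 0.291, and the ratio of *Tgm6* to *Tgm3* per length ran from 0 in WT replicates 1 and 3, and 0.00599 in KO replicate 2, to 4.06 in WT+ZnO NPs replicate 1. Within groups *Tgm3* went with epidermal *Tgm1* instead, with r at 0.805 for the deviations from the group means and 0.380 over the libraries as they are.

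**Figure D2:**
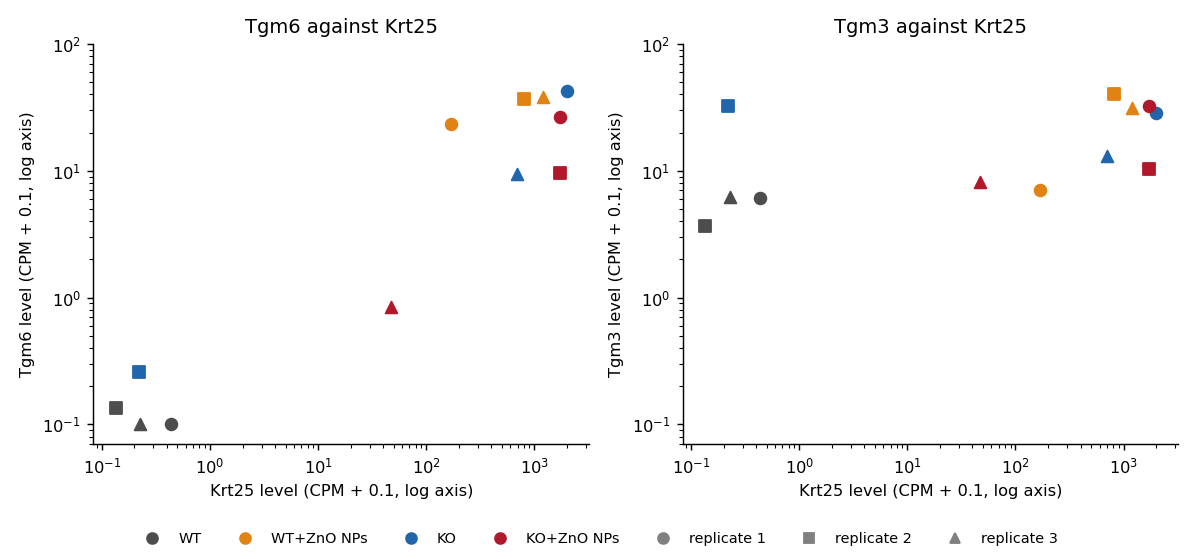
Level of *Tgm6* (left) and *Tgm3* (right) against that of the inner root sheath keratin *Krt25* in the 12 libraries, on log axes of CPM + 0.1, coloured by group and shaped by replicate number. The 3 WT libraries and KO replicate 2 sit at the lower left for *Tgm6*, and KO replicate 2 sits apart at 32.6 CPM for *Tgm3*.

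Counts of called genes in the lists below are to be read beside the share of all tested genes called, which was 20.8% higher and 22.1% lower in WT+ZnO NPs against WT, 4.61% and 3.58% in KO against WT, and 6.57% and 8.09% in KO+ZnO NPs against KO.

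The inner root sheath and medulla substrates held 11 genes, all tested. Against WT 11 rose in WT+ZnO NPs, with a median log2 fold change of 9.79 beside 0.06 over all genes tested, and 8 rose in KO, with a median of 10.74 beside 0.01. The WT levels of most of these genes are near 0, so the fitted medians depend on the prior count. The summed level of the list was 6.35 to 10.5 CPM in WT, 968 to 5593 CPM in WT+ZnO NPs, 27.4 to 13059 CPM in KO and 236 to 9460 CPM in KO+ZnO NPs. *Tchh* rose in KO (log2 fold change 8.62 ± 2.09, adjusted p = 0.0335, edgeR) and in WT+ZnO NPs (6.80 ± 1.94, adjusted p = 0.0166). None of the 11 was called in KO+ZnO NPs against KO by edgeR or DESeq2. The count of 8 in KO against WT was 0 without WT replicate 2, at most 10 with another library left out, 11 with DESeq2, 4 with the Y-linked covariate and 1 among only libraries without Y-linked transcripts, and the count of 11 was 6 without WT replicate 1 and 1 with the Y-linked covariate.

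Of 12 hair matrix and shaft genes tested, 9 rose in WT+ZnO NPs and 5 in KO against WT, and none was called in KO+ZnO NPs against KO. *Krt35*, a hair keratin, was at 0.150 ± 0.073 CPM in WT, 574 ± 248 CPM in WT+ZnO NPs, 75.6 ± 72.3 CPM in KO and 147 ± 137 CPM in KO+ZnO NPs (SD, n = 3 each). *Gata3*, a transcription factor of the inner root sheath, rose from 38.7 ± 6.44 CPM in WT to 128 ± 18.6 CPM in WT+ZnO NPs (log2 fold change 1.73 ± 0.23, adjusted p = 0.000233) and to 68.8 ± 12.1 CPM in KO (0.83 ± 0.22, adjusted p = 0.0448). The count of 9 was 5 with the Y-linked covariate. The count of 5 in KO against WT was 0 without any one of the 3 WT libraries, 0 among only libraries without Y-linked transcripts and 3 with the Y-linked covariate, while it was 8 at the most with another library left out and 12 with DESeq2.

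The ratio of *Tgm3*, listed as follicular, to epidermal *Tgm1* within a library needs no scaling between libraries. *Tgm3* also acts in the upper epidermis. After the group means were taken out its r was 0.805 with *Tgm1* and 0.143 with *Krt25*. The ratio and the share below are therefore no measure of follicle against epidermis alone. Per length the ratio was 0.0545, 0.0476 and 0.108 in WT and 0.216, 0.254 and 0.184 in KO. It was 0.282, 0.635 and 0.593 in WT+ZnO NPs and 0.340, 0.180 and 0.456 in KO+ZnO NPs. Every library of the other groups was above the 3 of WT, WT+ZnO NPs did not overlap with KO, and KO+ZnO NPs overlapped with both. In WT, *Tgm3* and *Tgm6* together made up 3.94% to 6.85% of the summed level per length of the 4 keratinocyte members *Tgm1*, *Tgm5*, *Tgm3* and *Tgm6*. They made up 39.1% to 52.1% in WT+ZnO NPs, 16.2% to 33.4% in KO and 10.9% to 33.3% in KO+ZnO NPs.

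**Figure D3:**
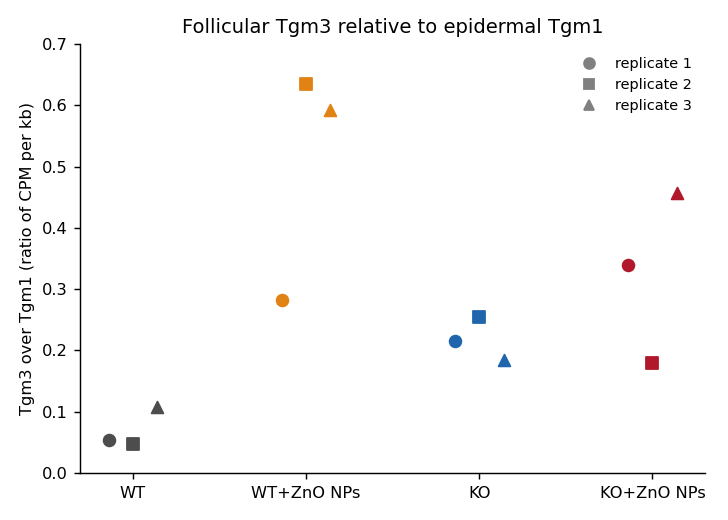
Ratio of *Tgm3* to *Tgm1* (CPM per kb, linear axis from 0) in each library, by group and shaped by replicate number. WT lies at 0.0476 to 0.108, below every library of the other 3 groups.

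The substrates of the epidermal enzymes, 28 of 29 cornified envelope genes tested, mostly fell with ZnO NPs in WT. Against WT, 17 fell in WT+ZnO NPs and 1 rose, with a median log2 fold change of -2.12. Against KO, 4 fell in KO+ZnO NPs and 1 rose, with a median of -1.13. Between KO and WT 1 fell and 1 rose of the 28, near the shares of 3.58% and 4.61% over all genes, with a median of 0.45, and DESeq2 called 5. *Krt10*, a keratin of the layers above the basal cells, fell from 2390 ± 646 CPM in WT to 482 ± 51.8 CPM in WT+ZnO NPs (log2 fold change -2.31 ± 0.50, adjusted p = 0.00436), and *Krt1*, its partner, fell from 1251 ± 285 CPM to 289 ± 46.4 CPM (-2.12 ± 0.53, adjusted p = 0.00892). *Dsp*, which encodes the desmosome protein desmoplakin, rose in KO against WT (1.14 ± 0.31, adjusted p = 0.0467). The count of 18 called in WT+ZnO NPs against WT was 15 with the Y-linked covariate and 12 without WT replicate 1, WT+ZnO NPs replicate 1 or WT+ZnO NPs replicate 3. The count of 2 called in KO against WT was 1 to 3 with libraries left out, and 1 without any of the WT or WT+ZnO NPs libraries or KO replicates 1 or 2. The count of 5 in KO+ZnO NPs against KO was 1 without KO replicate 2 or without KO+ZnO NPs replicate 2. It was 15 at the most with another library left out and 11 among only libraries without Y-linked transcripts.

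Lipid partners of the cornified envelope, the corneocyte lipid envelope genes, had 4 of 9 called lower and none called higher in WT+ZnO NPs against WT. Their summed level was not lower, at 1145 to 3079 CPM in WT+ZnO NPs and 693 to 1213 CPM in WT, which overlapped. *Sdr9c7*, a dehydrogenase needed to bind lipids to the envelope, fell from 55.6 ± 14.3 CPM in WT to 4.83 ± 1.08 CPM (-3.53 ± 0.77, adjusted p = 0.00452), and *Abca12*, the lipid transporter of lamellar granules, fell from 122 ± 18.8 CPM to 32.0 ± 5.52 CPM (-1.93 ± 0.41, adjusted p = 0.00371). *Elovl4*, which makes very long fatty acids, had the highest mean level of the list. It was at 643 ± 278 CPM in WT and 1701 ± 1037 CPM in WT+ZnO NPs, without overlap and not called (1.40 ± 0.59, adjusted p = 0.0764, edgeR). *Elovl4* was the one gene of this list called in KO+ZnO NPs against KO, where it rose (2.0 ± 0.60, adjusted p = 0.0483). That count of 1 was 0 without WT replicate 1, 2 or 3, WT+ZnO NPs replicate 2 or 3, KO replicate 1, 2 or 3, or KO+ZnO NPs replicate 3, and reached 6 with another library left out.

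The list of proteases linked to transglutaminase activation, with cystatin M/E, an inhibitor of part of them, fell in WT+ZnO NPs against WT in 5 of 5 genes. *Ctsl*, encoding cathepsin L, which cleaves pro-Tgm3, fell from 780 ± 131 CPM in WT to 140 ± 60.9 CPM (-2.48 ± 0.43, adjusted p = 0.00129) and in KO+ZnO NPs against KO from 886 ± 260 CPM to 256 ± 138 CPM (-1.79 ± 0.42, adjusted p = 0.0220). *Ctss* and *Lgmn* also fell in both. These are genes that macrophages express strongly, and the part of macrophage content in the falls of this list was not tested. The inhibitor *Cst6* fell in WT+ZnO NPs against WT only by this test (-1.54 ± 0.42, adjusted p = 0.0130), with -0.61 ± 0.41 in KO+ZnO NPs against KO, and the difference between the effects was not past the threshold (interaction 0.93 ± 0.58, adjusted p = 0.325). The 3 falls in KO+ZnO NPs against KO were 0 without KO replicate 2.

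Among 10 regulators of epidermal differentiation, 4 rose and 1 fell in WT+ZnO NPs against WT, beside 20.8% and 22.1% of all genes, and 1 rose in KO against WT, beside 4.61%. With the Y-linked covariate the 5 called in WT+ZnO NPs against WT became 3. *Trp63*, the master regulator of stratified epithelium, rose in both, from 98.7 ± 25.3 CPM in WT to 304 ± 10.5 CPM in WT+ZnO NPs (1.62 ± 0.27, adjusted p = 0.0010) and to 223 ± 48.0 CPM in KO (1.17 ± 0.27, adjusted p = 0.0268). The latter was the 1 call of the list, and the count was 0 without WT replicate 2, WT replicate 3, KO replicate 1 or KO replicate 2, with the Y-linked covariate, and among only libraries without Y-linked transcripts. KO+ZnO NPs against KO gave 1 risen and 1 fallen, near the shares of 6.57% and 8.09% over all genes, and 0 without KO replicate 2, KO replicate 3 or KO+ZnO NPs replicate 2. Of 5 genes of calcium entry and stores, on which the enzymes depend, *Trpv3* rose (1.44 ± 0.32, adjusted p = 0.00513) and *Orai1* fell (-0.62 ± 0.21, adjusted p = 0.0375) in WT+ZnO NPs against WT, where 20.8% and 22.1% of all genes were called higher and lower, and edgeR called 0 in the other comparisons, where DESeq2 called at most 1. In WT+ZnO NPs against WT the count of 2 was 0 with the Y-linked covariate and 1 without WT replicate 1 or 2, WT+ZnO NPs replicate 2 or 3, KO replicate 2 or KO+ZnO NPs replicate 2.

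*Tgm2*, the widely expressed tissue transglutaminase, was at 147, 225 and 208 CPM in WT. It was at 115, 66.8 and 60.2 CPM in WT+ZnO NPs and at 111, 93.0 and 95.7 CPM in KO, both entirely below WT. KO+ZnO NPs was at 108, 183 and 160 CPM, with replicate 1 within the range of KO and the other two within that of WT. The log2 fold change was -1.26 ± 0.27 for WT+ZnO NPs against WT, -0.95 ± 0.27 for KO against WT, 0.59 ± 0.27 for KO+ZnO NPs against KO and 0.90 ± 0.27 for KO+ZnO NPs against WT+ZnO NPs. The interaction of genotype and ZnO NPs was 1.85 ± 0.38. It was not called with the Y-linked covariate (1.64) nor without WT replicate 2 (1.73), WT+ZnO NPs replicate 3 (1.68) or KO replicate 3 (1.82). With that covariate the call for WT+ZnO NPs against WT was lost too, at -1.08, and for KO against WT *Tgm2* was called only under some alternatives, such as without WT+ZnO NPs replicate 1 (-0.95) or without KO+ZnO NPs replicate 1 (-0.95). The gene overlaps *Rprd1b* and *Gm20412*, and 18.7% of its 50-base stretches are shared with them, which makes its count less certain than those of the others.

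Of genes whose products *Tgm2* binds at the cell surface and in the matrix, 10 were tested. Against WT 7 of 10 fell and 2 rose in WT+ZnO NPs, with a median log2 fold change of -1.0, and against KO 4 fell in KO+ZnO NPs, with a median of -0.60. *Fn1*, encoding fibronectin, fell from 540 ± 179 CPM in WT to 146 ± 63.0 CPM (-1.89 ± 0.39, adjusted p = 0.00334) and from 749 ± 167 CPM in KO to 264 ± 86.6 CPM (-1.50 ± 0.39, adjusted p = 0.0295). *Lrp1*, an endocytic receptor that takes up *Tgm2*, fell in WT+ZnO NPs (-1.78 ± 0.31, adjusted p = 0.00117) and in KO+ZnO NPs (-1.24 ± 0.30, adjusted p = 0.0243), whereas *Tgm2* itself had a log2 fold change of 0.59 ± 0.27 in the latter. The count of 9 called in WT+ZnO NPs against WT was 3 with the Y-linked covariate, and the count of 4 in KO+ZnO NPs against KO was 0 without KO replicate 2. In KO against WT 2 of 10 rose, beside 4.61% of all genes. That count was 0 with the Y-linked covariate and without any WT or KO library or KO+ZnO NPs replicate 1.

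*F13a1* encodes the A subunit of coagulation factor XIII, which cross-links fibrin and is made by macrophages and megakaryocytes. It was at 191, 668 and 668 CPM in WT and 294, 349 and 252 CPM in KO, which overlapped. It was at 28.2, 48.0 and 34.1 CPM in WT+ZnO NPs and at 101, 92.6 and 30.3 CPM in KO+ZnO NPs, with no overlap with the untreated group of the same genotype. The log2 fold change was -3.79 ± 0.55 for WT+ZnO NPs against WT, a fitted level of 0.0722 times that of WT, and -2.00 ± 0.51 for KO+ZnO NPs against KO, 0.250 times. Over the 20 alternatives the first lay between -4.19 and -3.55. The second was called, but not without KO replicate 1 (-2.01), KO replicate 2 (-1.86), KO replicate 3 (-2.11), KO+ZnO NPs replicate 2 (-2.16) or KO+ZnO NPs replicate 3 (-1.60), nor among only libraries without Y-linked transcripts (-2.28).

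Markers of resident macrophages moved with *F13a1*. All 10 fell in WT+ZnO NPs against WT, with a median log2 fold change of -4.34, 8 fell in KO+ZnO NPs against KO, with a median of -1.97, and 2 fell in KO against WT. The summed level of these 10 genes was 1812 to 3382 CPM in WT, 1259 to 1967 CPM in KO, 211 to 540 CPM in KO+ZnO NPs and 165 to 288 CPM in WT+ZnO NPs, with none of the 10 at 0 in any library. *Mrc1*, the macrophage mannose receptor, fell from 532 ± 231 CPM in WT to 32.4 ± 15.7 CPM (-4.04 ± 0.56, adjusted p = 0.000323). The ratio of *F13a1* to *Mrc1* per length stayed between 0.586 and 1.30 over the 12 libraries while *F13a1* itself ranged from 28.2 to 668 CPM. Markers of megakaryocytes and platelets were low, at 13.4 to 39.3 CPM summed over 5 genes. The 8 falls in KO+ZnO NPs against KO were 3 without KO replicate 2, and the 2 in KO against WT were 0 without WT replicate 2 or KO replicate 3. The part of macrophage content in the level of *F13a1* was not tested.

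**Figure D4:**
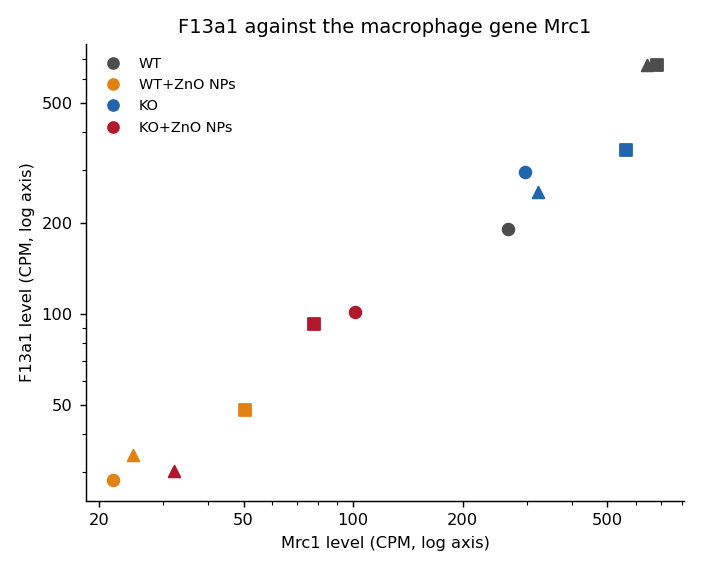
Level of *F13a1* against that of the macrophage gene *Mrc1* in the 12 libraries (CPM, log axes), coloured by group and shaped by replicate number. The untreated libraries lie above 190 CPM of *F13a1* and all 6 libraries given ZnO NPs at or below 101 CPM.

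The number of the 6 genes called was read beside the share of all tested genes called in the same direction, and since the genes were listed with these levels known it is no evidence about them. In KO against WT *Tgm6* was called higher and 0 were called lower, while 4.61% of all genes were called higher and 3.58% lower. Between WT+ZnO NPs and WT 2 were higher, *Tgm3* and *Tgm6*, and 2 lower, *Tgm2* and *F13a1*, beside 20.8% and 22.1% of all genes. Between KO+ZnO NPs and KO 0 were higher and *F13a1* was lower, beside 6.57% and 8.09%. Between the groups given ZnO NPs edgeR called 0, with 2 at an unadjusted p under 0.05 and 1 by DESeq2, beside 2.13% and 1.16%. In the interaction *Tgm2* was called higher and *Tgm6* lower, beside 5.08% and 3.59%. KO against WT and WT+ZnO NPs against WT share their control libraries, and WT+ZnO NPs is the control of the comparison with KO+ZnO NPs and the tested group of the comparison with WT.

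**Figure D5:**
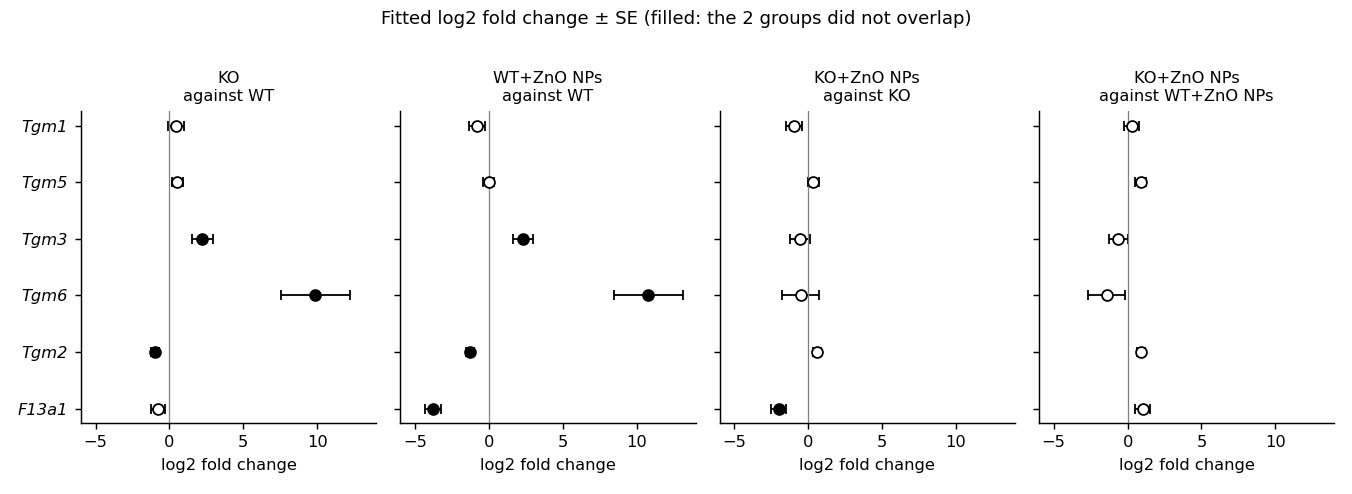
Fitted log2 fold change ± SE (approximate) of the 6 genes in 4 comparisons, with filled points where the libraries of the 2 groups did not overlap. *Tgm6* lies at 9.87 and 10.79 in the comparisons with WT, values that depend on the prior count, and *F13a1* lies left of 0 in both comparisons of ZnO NPs with untreated skin.

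The order of the levels per kilobase changed between groups. In WT the means ran from *F13a1* (75.6 CPM per kb) and *Tgm2* (41.9) through *Tgm1* (19.5), *Tgm5* (5.08) and *Tgm3* (1.27) to *Tgm6* (0.00344), and only *F13a1* and *Tgm2* had overlapping ranges among neighbours. In KO they ran *F13a1* (44.3), *Tgm1* (26.7), *Tgm2* (21.7), *Tgm5* (7.37), *Tgm3* (5.97) and *Tgm6* (5.07), with *Tgm1* overlapping *Tgm2*, and *Tgm5*, *Tgm3* and *Tgm6* overlapping their neighbours among these 3. The order in WT+ZnO NPs was *Tgm2* (17.5), *Tgm1* (11.4), *Tgm6* (9.56), *Tgm3* (6.34), *F13a1* (5.46) and *Tgm5* (5.07), and every pair of neighbours overlapped. *Tgm2* (32.6) in KO+ZnO NPs stood above *Tgm1* (13.7), *F13a1* (11.1), *Tgm5* (9.36), *Tgm3* (4.10) and *Tgm6* (3.57), and the neighbours after *Tgm2* overlapped.

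Markers of further cell types in the skin are given as context for the members, by summed level and calls. Adipocyte genes had 4 of 6 fallen in WT+ZnO NPs against WT, at 658 to 1452 CPM against 4575 to 6526 CPM in WT, a count that was 1 without WT replicate 3, WT+ZnO NPs replicate 1 or WT+ZnO NPs replicate 3. Endothelial genes had 4 of 4 fallen in the same comparison, at 94.9 to 216 CPM against 491 to 528 CPM, and 0 called with the Y-linked covariate. Basal keratinocyte genes had 2 of 5 risen, among them *Krt5* (0.95 ± 0.28, adjusted p = 0.0181), and sebaceous gland genes 1 of 5, where 20.8% of all genes were called higher. With the Y-linked covariate both counts were 0, and the count of basal genes was also 0 without WT replicate 2 or WT+ZnO NPs replicate 1. Fibroblast genes had 1 risen and 2 fallen of 5, beside 20.8% and 22.1% of all genes, which became 2 called with the covariate or without WT replicate 1 or WT replicate 2, and neuron genes 1 of 2 tested fallen, which became 0 with the covariate. Skeletal muscle genes varied widely, from 5509 to 21898 CPM in WT+ZnO NPs, 1592 to 5451 CPM in KO and 3135 to 17174 CPM in KO+ZnO NPs. In WT+ZnO NPs against WT, 0 of 7 tested were called by edgeR and 1 by DESeq2. In KO+ZnO NPs against KO 1 of 7 rose, beside 6.57% of all genes. That count was 0 with the Y-linked covariate, 5 with DESeq2 and 7 among only libraries without Y-linked transcripts. It was 0 to 4 with libraries left out in turn. In KO against WT 1 muscle gene fell, a count that was 3 among only libraries without Y-linked transcripts, and 0 with the Y-linked covariate and without any WT library, WT+ZnO NPs replicate 3, KO replicate 2 or 3, or any KO+ZnO NPs library. Of 3 megakaryocyte genes tested there, 1 rose (*Itga2b*) and 1 fell (Ppbp), a count of 2 that was 1 with the Y-linked covariate and 0 without WT replicate 2 or 3 or any KO library. In WT+ZnO NPs against WT 1 of the 3 fell, again Ppbp (-4.51 ± 0.82, adjusted p = 0.00156), and 2 were called with the Y-linked covariate. In KO+ZnO NPs against KO 2 of 5 sebaceous gland genes rose, beside 6.57% of all genes, and 0 without KO replicate 2 or KO replicate 3. None of these lists' changes was tested for its part in the levels of the 6 genes.

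The other genes of the family, and the partner subunit of *F13a1*, were low. *Tgm4*, the prostate transglutaminase, had group means of 0.784 to 1.83 CPM, *Tgm7* of 0.139 to 0.516 CPM and *Epb42*, encoding the erythrocyte protein band 4.2 that lacks enzyme activity, of 0.0568 to 0.139 CPM. *F13b*, the carrier subunit of factor XIII made in liver, was at 0 counts in the WT, KO and KO+ZnO NPs libraries. *Tgm4* and *Tgm7* passed the filter, and neither was called by edgeR or DESeq2 in any comparison.

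The genes most like each member over the 12 libraries were taken from 15922 genes by Pearson's r of log2(CPM + 1), as a description over libraries that share 4 groups. For *Tgm6* they were *Ly6g6d* (0.987), *Lrrc75b* (0.987), *Upk1b* (0.986), the hair keratin gene *Krt31* (0.983) and Gabrp (0.982), and for *F13a1* they were *Mrc1* (0.988), *Cd163* (0.986), *Stab1* (0.98), Selenop (0.979) and *C1qa* (0.979), among them scavenger receptors and a complement subunit of macrophages. For *Tgm3* they were *Serpinb13* (0.947), *Gjb6* (0.939), *Kremen1* (0.930), *Mfsd13a* (0.904) and *Rasgef1b* (0.901). For *Tgm1* they were *Elmod1* (0.978), *Ctnnbip1* (0.949), *Mtmr3* (0.947), *Arid3a* (0.939) and *Stx19* (0.933), and none of the cornified envelope list was among them. *Tgm1* and *Lor*, which encodes loricrin, had r at 0.740, and at 0.544 after the group means were taken out. For *Tgm5* they were *Npbwr1* (0.921), *Osbpl3* (0.917), *Sgpp1* (0.911), *Slc52a3* (0.899) and *Zbtb7c* (0.898), and for *Tgm2* they were *Emc2* (0.977), *Atg10* (0.967), *Rnf141* (0.956), Selenot (0.95) and *Acot9* (0.946). The member pair with the strongest inverse relation was *Tgm3* and *Tgm2*, with r at -0.831 and at -0.781 after the group means were taken out.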

How the data were processed

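RNA-seq of skin from 12 mice was analysed. The authors deposited raw counts, 1 whole number for each gene in each library, with no scaling. Their paper names STAR and HTSeq for alignment and counting, while the submitters' processing notes name HISAT2 2.0.5 and mm10. Annotation release and strandedness are not given in the sources used here. Identifiers of 52489 genes were matched to GENCODE release M21 on GRCm38.

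Counts were tested by edgeR 4.0.16 (R 4.3.3, quasi-likelihood, TMM factors, its default filter for low counts) with a model of 4 group means over all libraries. The common dispersion was 0.109. P-values were adjusted by Benjamini-Hochberg over the 18822 genes kept, and 0.05 was the threshold. SE was taken as the size of the log2 fold change over the square root of F, an approximation. Replicate pairs were further apart than counting noise allows (chi-square per degree of freedom 40.8 to 178). Nothing in the labels says whether mice shared a cage or litter, so p-values measure the spread between these libraries. The steps were tested on simulated counts.

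The members and lists were chosen with earlier results of these data known. The text names the 6 members, the rest of the family, *Cdc42*, the 3 genes of highest mean level in each of 19 lists (all where a list holds 5 or fewer) and the 5 genes most like each member, taken from those averaging 1 CPM or more. The lists held 152 genes, 151 of them in the table. Ratios needed 20 counts in the denominator. Settings varied were the scaling (RLE, library size), the tool (DESeq2 1.42.0), the libraries fitted, the filter (none, or 10 counts in every library), a replicate block, a Y-linked covariate and leaving out each library. Restriction to libraries without Y-linked transcripts was chosen after seeing the data.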

Additional observations from a re-analysis of the deposited data

Results flagged for a closer look

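The difference between WT+ZnO NPs and WT was set against that between KO+ZnO NPs and KO as an interaction in edgeR, given as a log2 value ± SE. It was past the threshold for 10 named genes outside the member list. Over all tested genes 5.08% were called higher in the interaction and 3.59% lower. The values of *Tgm6* and *Tgm2*, which were chosen with these levels known, are a description. For *Tgm6* the interaction was -11.29 ± 2.71, a fitted value that depends on the prior count because WT held 1 count in all. For *Tgm2* it was 1.85 ± 0.38, with a lower mean in WT+ZnO NPs than in WT and a higher one in KO+ZnO NPs than in KO.

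Among follicle genes it was -12.39 ± 3.28 for *Krt71*, -11.73 ± 3.15 for *Krt25* and -10.93 ± 2.33 for *Krt35*, all near 0 in WT, and -1.29 ± 0.31 for *Gata3*. *Lgmn*, a lysosomal protease, gave 2.03 ± 0.46 and *Stab1*, a macrophage scavenger receptor, 1.64 ± 0.44. *Fabp4*, a fatty acid carrier of adipocytes, gave 2.64 ± 0.57. The endothelial genes *Pecam1* and *Tie1* gave 2.27 ± 0.55 and 2.24 ± 0.55. *Stmn2*, a gene of neurons, gave 2.52 ± 0.58. All libraries of WT+ZnO NPs and none of WT held Y-linked transcripts, and *Cdc42* was lower in WT+ZnO NPs than in KO. With the Y-linked covariate neither *Tgm6* (-8.21) nor *Tgm2* (1.64) was called. The listed genes called in the interaction then went from 4 of 11 tested to 0 for the inner root sheath. They went from 5 of 12 to 0 for hair matrix and shaft and 1 of 5 to 0 for the proteases. For the cornified envelope they went from 2 of 28 to 0, and for endothelium from 2 of 4 to 0. For neurons they went from 1 of 2 to 0 and for macrophages from 6 of 10 to 1. For adipocytes 1 of 6 was called with and without the covariate. The share of all tested genes called with the covariate is not given here. With libraries left out in turn the lowest counts were 0 for the inner root sheath (without WT replicate 2), 1 for hair matrix and shaft and 1 for macrophages (each without WT replicate 2 or WT+ZnO NPs replicate 3), and 1 for the cornified envelope (without WT replicate 2, WT+ZnO NPs replicate 3 or KO replicate 1 or 3). They were 0 for the proteases (without WT replicate 2 or 3, WT+ZnO NPs replicate 3 or KO replicate 1 or 3) and 0 for adipocytes (without WT replicate 2 or 3, WT+ZnO NPs replicate 3 or KO replicate 3). They were also 0 for endothelium, without any WT or KO library or WT+ZnO NPs replicate 1 or 3, and 0 for neurons, without the same libraries other than KO replicate 3. The highest counts with a library left out were 8 for the inner root sheath, 9 for hair matrix and shaft, 5 for the cornified envelope, 4 for adipocytes and 3 for endothelium. DESeq2 called 11, 12, 4, 1 and 3 of these lists, 7 macrophage genes, 1 protease and 1 neuron gene.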

How the results depend on the processing

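In all, 21 settings beside the reported one were run. No called fold change of a member reversed, and 584 of 600 fold changes moved by less than 1 SE. The number of members called in KO against WT was 1, and became 2 with library size only, 3 with DESeq2, 2 with edgeR on only the groups compared (*Tgm2* and *Tgm3*, as *Tgm6* failed the filter there), 0 with a minimum of 10 counts in every library (*Tgm6* was removed by it), and 0 to 3 with libraries left out in turn. In WT+ZnO NPs against WT it was 4, and became 2 with the Y-linked covariate, 3 with a minimum of 10 counts in every library and 3 to 4 with libraries left out. In KO+ZnO NPs against KO it was 1, and became 0 with edgeR on only the groups compared, 0 among only libraries without Y-linked transcripts, and 0 to 1 with libraries left out. In KO+ZnO NPs against WT+ZnO NPs it was 0, and became 1 with DESeq2 and 0 to 1 with libraries left out. In the interaction it was 2, and became 3 with DESeq2, 1 with a minimum of 10 counts in every library, 0 with the Y-linked covariate and 0 to 3 with libraries left out; edgeR on only the groups compared gives no value there. The cause was not tested except where named.

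With the replicate number as a replicate block, 1, 4, 1, 0 and 2 members were called in these comparisons, as without it. Same-numbered libraries correlated at -0.343 to 0.429 in their deviations from the group means, so the numbers were not taken to pair the samples. With the block, counts of listed genes that moved by over 1.5 times were, in KO against WT, 8 to 2 for the inner root sheath, 2 to 0 for *Tgm2* partners, 1 to 2 for regulators, 2 to 1 for megakaryocytes and 1 to 0 for muscle. They were 4 to 2 for adipocytes and 0 to 4 for Y-linked genes in WT+ZnO NPs against WT. In KO+ZnO NPs against KO they were 1 to 0 for the lipid envelope, 4 to 7 for *Tgm2* partners and 0 to 1 for basal keratinocytes, and in the interaction 4 to 1 for the inner root sheath and 0 to 1 for calcium genes.

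The ratio of *Tgm3* to *Tgm1* without division by length is larger by a constant factor in every library, so the order of libraries is the same. Depth does not limit the members other than *Tgm6* in WT and KO replicate 2, where 0 to 4 counts were read, and in KO+ZnO NPs replicate 3, with 17 counts.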
